A study of Mus musculus with 9 samples.

Results

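The genes described here are the receptor for leukemia inhibitory factor (LIF), its transcription factor STAT3 and genes known as STAT3 targets: Lifr, Il6st, Stat3, Socs3, Bcl3, Pim1, Pim2 and Gbx2. They were taken by symbol, from probe sets whose platform annotation gives a single gene. All 8 had such a probe set, 19 probe sets in all, out of 18193 genes on the array, and each gene was read from its brightest. Of the 8 genes, 7 reached a signal of 50 on 2 or more arrays and were tested, as were 8716 of all genes. Bcl3 reached 50 on 1 array only, so it was described and not tested.

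LIF binds a receptor made of 2 chains, the LIF receptor (Lifr) and the shared chain gp130 (Il6st). The chains carry JAK kinases, which phosphorylate STAT3, and STAT3 then enters the nucleus and switches on its targets. Among these is Socs3, which binds gp130 and the kinases and shuts the signal down. In mouse embryonic stem (ES) cells this signal sustains self-renewal, and LIF is added to the culture for that purpose.

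The 9 arrays held total RNA of ES cells. The 1 undifferentiated array came from cells kept with 2000 units/ml of LIF and 1 µg/ml of doxycycline in GMEM with KnockOut serum replacement and fetal bovine serum (FBS). The 8 other arrays came from cells moved to MEM alpha with FBS, for which no LIF is listed, 1 array each for the 4 sampling times, which were day 0.5, day 1.5, day 2.5 and day 3.5 (written D0.5 and so on), in medium that held 1 µg/ml of doxycycline (Dox+) or none (Dox-). Doxycycline controls an introduced protein kinase A (PKA) that is always active once made. The sources used here do not give which medium switches it on, its promoter, or whether the line is 1 clone. Because the basal medium, the serum supplements and LIF changed together, their parts in the first step cannot be told apart. Dox+ cells kept doxycycline at that step and Dox- cells lost it. All groups had 1 array, so days or media served as repeats, and p-values measure only the spread between these arrays. Signals are array brightness scaled to an average of 100 per array, and all differences were taken between log2(signal + 16) values, so the change of a dim gene is understated.

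All 8 ES markers read at least 50 on the undifferentiated array, among them Pou5f1 at 2263 and Nanog at 1630, and 0 of 8 fibroblast or feeder markers did, the brightest being Thy1 at 37.6. The share of genes at 50 or above ranged from 41.6% to 44.2% across the arrays. In RNA of whole cultures, fewer cells of a type and less RNA per cell cannot be told apart.

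The promoters of 3 of the genes are printed: Socs3, the only member promoter with TTCNNNGAA, the spaced palindrome that STAT factors bind, Bcl3, whose signal was also highest by far with LIF, and Pim2, whose signal was lowest with LIF. Sequences are from RefSeq on GRCm38.p6, on the strand of the gene, from 250 bases before to 50 bases after the annotated start. Capitals mark the match.
Socs3, chr11:117969317-117969616, minus strand: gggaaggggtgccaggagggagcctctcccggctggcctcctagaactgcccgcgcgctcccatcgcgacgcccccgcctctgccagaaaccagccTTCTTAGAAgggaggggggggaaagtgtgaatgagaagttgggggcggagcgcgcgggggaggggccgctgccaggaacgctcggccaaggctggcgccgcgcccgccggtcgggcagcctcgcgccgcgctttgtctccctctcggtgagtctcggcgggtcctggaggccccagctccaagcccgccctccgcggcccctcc
Bcl3, chr7:19822706-19823005, minus strand: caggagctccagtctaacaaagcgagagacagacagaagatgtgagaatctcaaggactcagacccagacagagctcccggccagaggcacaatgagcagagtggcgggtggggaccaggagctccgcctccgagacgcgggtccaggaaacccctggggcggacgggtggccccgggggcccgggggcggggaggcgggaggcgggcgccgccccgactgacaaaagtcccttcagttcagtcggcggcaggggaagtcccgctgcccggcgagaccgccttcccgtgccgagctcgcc
Pim2, chrX:7878056-7878355, plus strand: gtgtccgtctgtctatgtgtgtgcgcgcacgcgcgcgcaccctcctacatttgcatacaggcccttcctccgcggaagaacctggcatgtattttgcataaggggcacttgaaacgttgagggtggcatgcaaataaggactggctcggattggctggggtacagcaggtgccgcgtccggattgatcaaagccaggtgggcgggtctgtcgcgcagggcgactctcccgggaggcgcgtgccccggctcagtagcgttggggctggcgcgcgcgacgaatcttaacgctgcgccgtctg

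All 8 genes were matched to this table, with 10 promoters, since Lifr and Pim1 have 2 each. Both strands were searched, and both motifs read the same on either. TTCNNNGAA stood in 1 of the 10 (Socs3, TTCTTAGAA, 154 to 146 bases before the start) and in 8.3% of all 32851 promoters of the table. The cyclic AMP response element TGACGTCA, which CREB binds downstream of PKA, stood in 0 of the 10 and in 1.79% of all. The match in Socs3 overlapped no other.

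**Figure D1:**
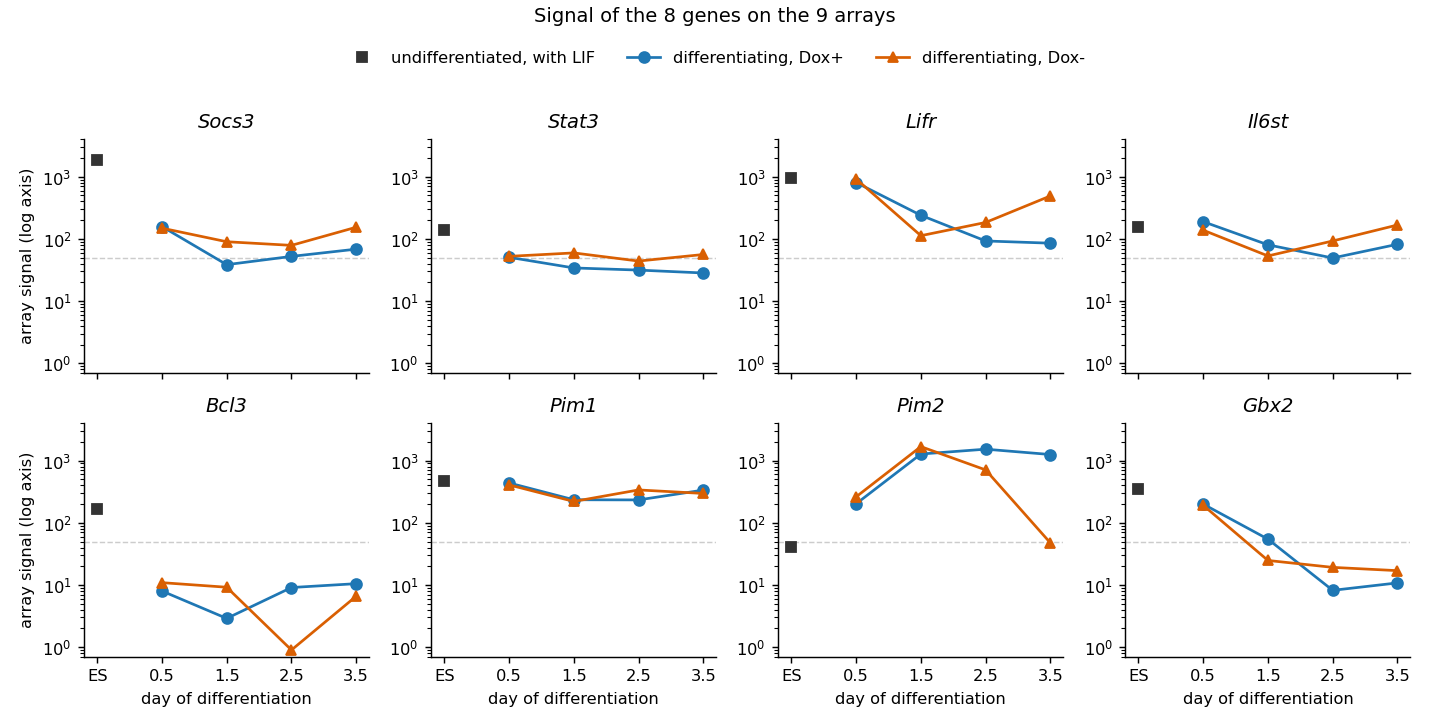
Signal of each of the 8 genes (vertical log axis, brightest probe set) against the stage (horizontal axis: ES, undifferentiated cells with LIF, then days 0.5 to 3.5). Each point is 1 array, squares are undifferentiated cells, circles Dox+ and triangles Dox-, and the dashed line is a signal of 50. Socs3 reads 1824 in undifferentiated cells and at most 158 on any other array, while Pim2 reads 40.7 there and up to 1680.2 later.

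The first step, from LIF to D0.5, parted the 8 genes into those that read far lower within the first day, those that differed little and 1 that read higher. Socs3, the feedback inhibitor of the receptor, read 1824 with LIF and 158 and 149 on the Dox+ and Dox- arrays of D0.5, 11.5-fold and 12.2-fold lower. Among the 8716 tested genes its mean difference of -3.44 was the lowest, rank 1 of 8716. Bcl3, a nuclear partner of NF-kB proteins and a known STAT3 target, read 164 with LIF and 8.0 and 10.9 on D0.5. These D0.5 values of Bcl3 are dim, where a fold on the signal is imprecise, and the log2(signal + 16) differences were -2.91 and -2.75.

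Stat3 itself, whose own transcription STAT3 is known to raise, read 140.0 with LIF and 50.6 and 52.4 on D0.5. Gbx2, a homeobox gene and STAT3 target that can sustain ES cells, read 344 with LIF and 199.9 and 191 on D0.5. Both genes were lower on both D0.5 arrays, Stat3 by log2 differences of -1.23 and -1.19 and Gbx2 by -0.74 and -0.80. The receptor genes differed less at this point. Lifr read 944 with LIF and 806 and 920 on D0.5, and Il6st read 154, then 189 and 138. Pim1, a survival kinase gene, read 474, then 438 and 407.

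Pim2 encodes a kinase closely related to Pim1, and its signal went the opposite way. It read 40.7 with LIF and 202 and 262 on D0.5, log2(signal + 16) differences of 1.94 and 2.29, whose mean (2.12) was rank 10 from the top of 8716 genes. Thus 2 of the 7 tested members, Socs3 and Stat3, were at least 2-fold lower on both D0.5 arrays, against 0.918% of all tested genes. Another, Pim2, was at least 2-fold higher on both, against 1.15%.

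In limma (stage and medium, all 9 arrays), 0 of 8716 genes were called at D0.5 against undifferentiated cells after Benjamini-Hochberg adjustment (0%), and 766 (8.79%) had an unadjusted p under 0.05. The fitted difference of Socs3 was -3.74 ± 0.36 (SE; limma adjusted p = 0.128, unadjusted p = 3.33e-05). Stat3 gave -1.42 ± 0.31 (adjusted p = 0.263) and Pim2 2.70 ± 1.38 (0.66). This fit rests on 1 undifferentiated array, assumed to vary like the others, and it counts the growing difference of the media as spread. That array was coded as Dox+, so the fitted values are those for Dox+ cells. They are shifted by the media difference fitted over all days. For Socs3, Stat3 and Pim2 they therefore lie outside the differences observed on the 2 D0.5 arrays. A fit added after the values were seen, in which the media differ only on D2.5 and D3.5, called 44 genes, Socs3 among them (-3.44 ± 0.37; limma adjusted p = 0.0198).

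**Figure D2:**
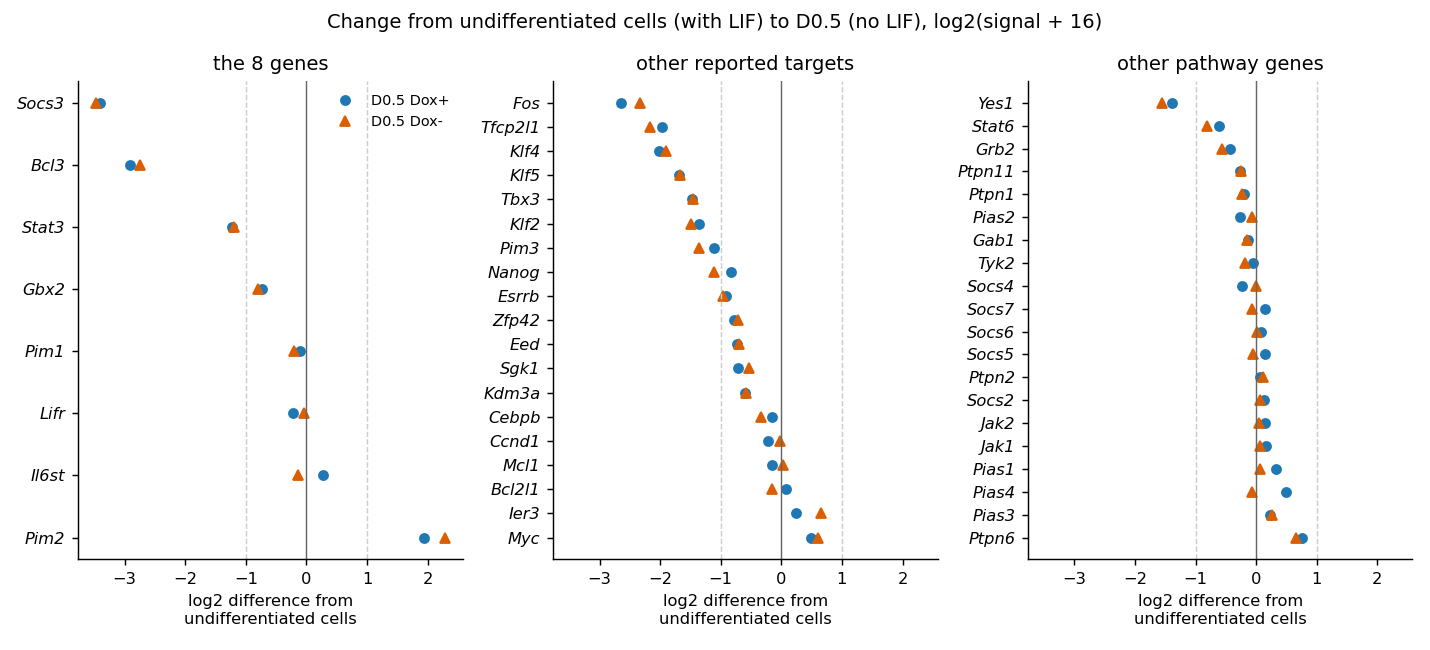
Log2(signal + 16) difference of the D0.5 arrays from the undifferentiated array (horizontal axis) for the 8 genes (left), 19 tested genes of a list of other reported targets (middle) and 20 tested genes of the pathway (right), each sorted by the mean of its 2 points. Circles are Dox+ and triangles Dox-, 1 array each, and dashed lines mark 2-fold; the Socs3 points lie at -3.40 and -3.48 and those of Pim2 at 1.94 and 2.29.

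All 3 probe sets of Socs3 read far lower on D0.5. The brightest probe set of Socs3 and the next carry the suffix that Affymetrix uses where probes may match other sequences, but the remaining one does not, and it read 217 with LIF against 24.3 and 24.1 on D0.5. The next probe set of Socs3 read 552 against 63.5 and 70.1. The next of Stat3 read 158 against 40.5 and 34.6. A dimmer one read 22.9 against 13.2 and 7.4. The dimmest of Stat3, at most 16.6 on any array, read 3.3 with LIF and 6.5 and 11.4 on D0.5. For Il6st the next probe set read 80.2 with LIF and 59.7 and 64.5 on D0.5, both lower, whereas the brightest was higher on the Dox+ array. The other probe sets of Lifr stayed under 50 on every array, and the second read 38.8 against 13.6 and 14.3. For Pim1 the second probe set read 50.3 against 38.5 and 46.8, lower on both arrays as the brightest was.

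**Figure D3:**
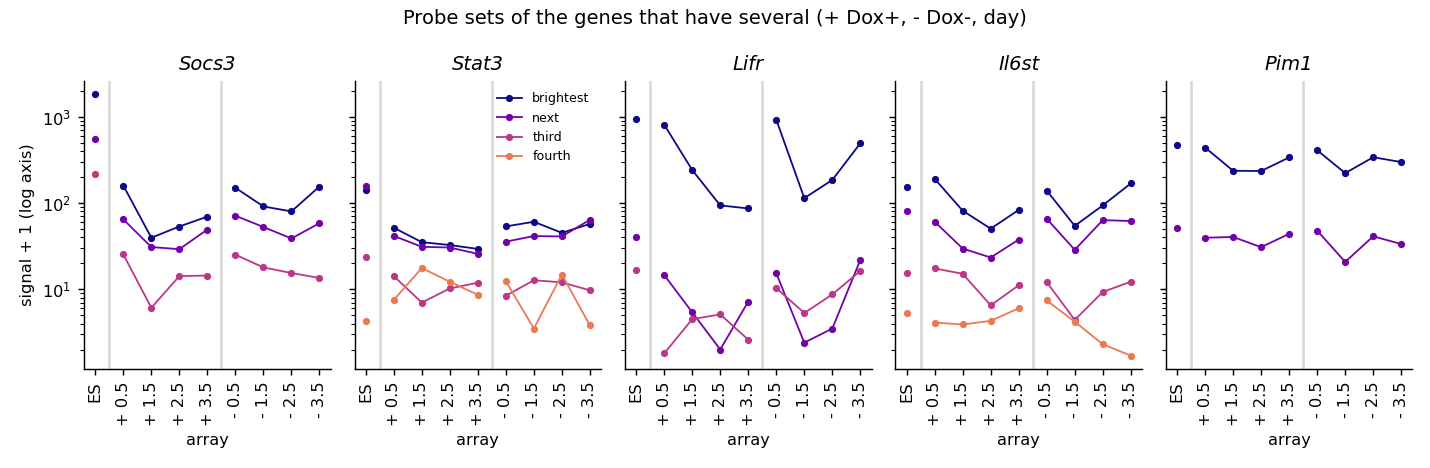
Signal plus 1 (vertical log axis) of every probe set of the 5 genes that have several, on the 9 arrays (horizontal axis: ES, then Dox+ and Dox- by day); each colour is 1 probe set, from the brightest down, and lines join the days of a medium. All 3 Socs3 probe sets are highest in undifferentiated cells, and 1 dim Stat3 probe set (at most 16.6) departs from the others.

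Markers of another cell type also differed at this step. The summed signal of 8 extraembryonic endoderm markers was 272 on the undifferentiated array and 92.6 and 88.3 on D0.5, with Lama1, a laminin gene, at 136 against 18.1 and 16.5. Lama1 was the only 1 of the 8 at 50 or above with LIF. Gata6 (45.0 against 15.3 and 24.0), Sox7, Sox17 (27.1 against 6.1 and 2.3) and Afp were lower on both D0.5 arrays. Dab2 differed little (35.0 against 31.6 and 31.6) and Gata4 was mixed (6.7 against 10.2 and 3.5). Ttr was higher on both (0.8 against 4.4 and 2.8). None of the 8 was at 0 on these arrays. The sum of 8 mesoderm and vascular markers (226 against 106 and 132) was lower as well. Of these only Tal1 reached 50 with LIF (73.9 against 19.6 and 27.6), and Kdr was higher on D0.5 (16.4 against 22.5 and 17.4). The sum of 8 trophoblast markers (364 against 179 and 199) was lower through 1 gene, Tfap2c (263 against 34.9 and 41.3). The median of the trophoblast list was 16.4 against 19.1 and 19.6. Their part in the differences was not tested.

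After D0.5 the 8 genes took separate courses. Gbx2 fell in both media. After 199.9 on D0.5 it read 54.6, 8.2 and 10.8 on the later Dox+ arrays, in order of day, and after 191 it read 24.8, 19.2 and 17.0 on the later Dox- arrays. Its fitted D3.5 minus D0.5 difference, with the medium as a block, was -2.83 ± 0.35 (SE, 2 media; limma adjusted p = 0.00652). It was lower in 2 of 2 media, and it was the only 1 of the 7 tested members called, where 1917 of 8716 genes (22%) were called and 890 (10.2%) were called lower. Without the D0.5 Dox- array only 66 genes were called and Gbx2 was not (-2.87, adjusted p = 0.0755); with any other array left out it was called.

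Socs3 read lower still in Dox+, at 38.5 on D1.5, and then read 52.3 and 68.4. In Dox- it read 90.0, 78.7 and 154. The 8 differentiating arrays together lay between 38.5 and 158, all below the undifferentiated array by at least 11.5-fold. Bcl3 stayed between 0.9 and 10.9 on all 8, values at which no order can be read.

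Stat3 read 34.1, 31.5 and 28.3 on the 3 later Dox+ arrays and 59.5, 44.0 and 56.1 on the matching Dox- ones. None of these reached the 140.0 of undifferentiated cells. Pim1 read 235, 233 and 336 in Dox+ and 220.4, 338 and 297 in Dox-. Its 9 values spanned 1.05 on the log2 scale, the narrowest range of the 8 genes, and the undifferentiated array was the highest. In all, the undifferentiated array was above all 8 others for 5 of the 7 tested members, against 18.4% of all tested genes. Its fold over the highest other array was 11.5 for Socs3, 2.35 for Stat3 and 1.72 for Gbx2. For Pim1 and Lifr it was only 1.08 and 1.03. The undifferentiated array was below all 8 for 1 member (Pim2), against 22.9%.

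On their brightest probe sets, both receptor genes were at least 2-fold lower on D1.5 than on D0.5. The next probe set of Il6st gave log2 differences of -0.76 in Dox+ and -0.88 in Dox-, and its dimmer ones gave smaller falls. The other probe sets of Lifr, under 50 on every array, gave -0.54 and 0.22 in Dox+ and -0.80 and -0.32 in Dox-. Lifr read 240 on D1.5 of Dox+, then 92.6 and 85.3, while in Dox- it read 113 on D1.5, then 184 and 491. Only 0.229% of tested genes were, like Lifr, at least 2-fold lower in Dox+ and at least 2-fold higher in Dox- between D1.5 and D3.5. From D0.5 to D1.5 its log2 difference was -1.68 in Dox+ and -2.86 in Dox-. Genes at least 2-fold lower at this step made up 2.36% of all in Dox+ and 4.07% in Dox-. Il6st read 80.3, 49.3 and 81.9 in Dox+ and 53.2, 92.6 and 167 in Dox-. Its step from D0.5 to D1.5 was -1.09 in Dox+ and -1.16 in Dox-. Over D0.5 to D3.5 neither was called, with Lifr at -1.95 ± 0.69 (SE, 2 media; limma adjusted p = 0.0919) and Il6st at -0.41 ± 0.39 (0.472). Without the Dox- array of D3.5 the Lifr value was -3.10 (adjusted p = 0.0353).

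Pim2 read 1276 on D1.5 in Dox+ and 1680.2 in Dox-, against 40.7 with LIF, log2(signal + 16) differences of 4.51 and 4.90. Its signals of 40.7 and 47.5 lie under 50, so folds against them are imprecise. Its steps from D0.5 were 2.57 and 2.61, where 4.33% of all tested genes in Dox+ and 6.12% in Dox- were at least 2-fold higher. It then read 1528 and 1253 in Dox+, but 709 and 47.5 in Dox-, a last step that 2.19% of tested genes took at least 2-fold downward, so that the last Dox- array read close to the 40.7 with LIF. Because the media parted, its fitted D3.5 minus D0.5 difference over both was 0.21 ± 1.09 (SE, 2 media; limma adjusted p = 0.907). Without the Dox- array of D3.5 it was 2.31 (adjusted p = 0.0486), and without the Dox+ array of D3.5 it was -1.90 (0.0546).

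The media differed little for these genes on D0.5. On that day 0 of the 8 were at least 2-fold apart (0.0918% of tested genes were that much higher in Dox- and 0.0229% lower), the largest difference being Il6st at -0.41, Dox- minus Dox+. On D1.5 again 0 were (1.33% of tested genes higher and 1.42% lower), though Socs3 (0.96) and Lifr (-0.99) came close. On D2.5 Pim2 was lower in Dox- (-1.09), where 4.45% of tested genes were at least 2-fold lower and 3.41% higher.

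**Figure D4:**
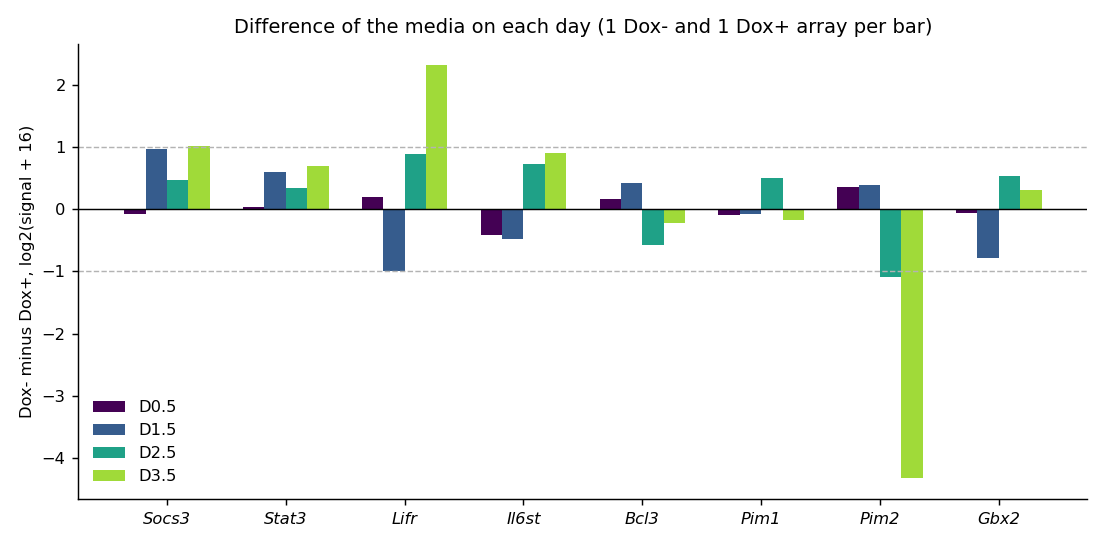
Dox- minus Dox+ difference on the log2(signal + 16) scale (vertical axis) for the 8 genes on D0.5, D1.5, D2.5 and D3.5 (bars, dark to light); each bar compares 1 array with 1 array, so there is no error bar, and dashed lines mark 2-fold. On D3.5 Lifr stands at 2.32 and Pim2 at -4.32.

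On D3.5, the receptor and Stat3 genes read higher in Dox- and Pim2 far lower. Pim2 read 47.5 against 1253, a log2(signal + 16) difference of -4.32 and rank 2 from the lowest of 8716 genes, and Lifr read 491 against 85.3, 5.75-fold higher and rank 64 from the highest. Socs3 read 154 against 68.4, a log2 difference of 1.01. Genes at least 2-fold higher in Dox- made up 4.13% and those at least 2-fold lower 4.8% of all tested genes. Il6st (0.90) and Stat3 (0.70) were higher by less, and Pim1 (-0.17), Gbx2 (0.30) and Bcl3 (-0.23) differed by less again. These are single arrays and carry no test.

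Other probe sets did not bear out each of these values. For Socs3 the other probe sets gave 0.19 and -0.04 on D3.5, so the 2-fold difference rests on the brightest alone. For Lifr they gave 0.73 and 0.83 from signals under 50, for Il6st the next gave 0.54, and for Stat3 the next gave 0.95. The dimmer ones, under 50 on every array, gave 0.06 and -0.33 for Il6st and -0.12 and -0.33 for Stat3. Pim2 has 1 probe set, as have Gbx2 and Bcl3.

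Over the 4 days, with the day as a block, no member was called, and 0 of 8716 genes were (0%; limma), while 1026 (11.8%) had an unadjusted p under 0.05. Socs3 gave 0.59 ± 0.20 (SE, 4 days; limma adjusted p = 0.416), higher in Dox- on 3 of 4 days. Stat3 gave 0.42 ± 0.18 (limma adjusted p = 0.423), higher on 4 of 4 days, but by only 0.04 on D0.5. Its other probe sets gave -0.16, -0.32 and 0.28 on D0.5. With the mean of all its probe sets the difference over the 4 days was 0.14. For Pim1 the difference was 0.04, with a 95% interval of -0.30 to 0.37, so a 2-fold difference shared by the 4 days lay outside it. For Gbx2 the interval was -0.61 to 0.61, which cannot exclude a 2-fold difference in signal. Gbx2 was dim on D2.5 and D3.5 in both media, and the scale understates the change of a dim gene. Its differences by day also varied in sign, at -0.06, -0.79, 0.54 and 0.3 in order of day. A linear change of the media's difference with day was not called for any member, nor for any of the 8716 genes (0%), with 736 (8.44%) at an unadjusted p under 0.05. The largest slopes were -1.55 ± 0.82 per day for Pim2 (limma adjusted p = 0.644) and 0.83 ± 0.56 for Lifr (0.704).

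A single difference for the pair of days D2.5 and D3.5 was fitted too, a comparison that was chosen with these values known, so its p-values describe these arrays. It took the media as equal on D0.5 and D1.5, so differences on those days counted as spread. Its SEs thus draw on all 8 differentiating arrays. The fit called 626 of 8716 genes (7.18%), 247 of them higher (2.83%) and 379 lower (4.35%) in Dox-. Pim2 was called lower, at -2.71 ± 0.63 (SE, 2 days; limma adjusted p = 0.0489), close to the threshold. Lifr (1.60 ± 0.40, adjusted p = 0.0598) and Il6st (0.82 ± 0.22, adjusted p = 0.0734) were not called, and neither were Socs3 (0.74 ± 0.31, 0.198) and Stat3 (0.52 ± 0.25, 0.253). The Pim2 call was lost under 4 of 5 other ways of preparing the values (adjusted p from 0.0544 to 0.0761). It was also lost without the arrays of D0.5 (0.116), D1.5 (0.0599) or D3.5 (-1.09, 0.0734), and without those of D2.5 it was -4.32 (0.000724). Lifr was called without D1.5 (0.0324) or D2.5 (2.32, 0.0264), and Il6st without D1.5 (0.0471).

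The D3.5 arrays also differed in markers of other cells. The summed signal of 8 mesoderm and vascular precursor markers was 2750.4 in Dox- and 792 in Dox+. That of 8 trophoblast markers was 7394 against 2426, and that of 8 extraembryonic endoderm markers 699 against 147. Most of the trophoblast gap lay in 2 keratin genes, Krt8 (2609 against 545) and Krt18 (3004 against 860). Eomes, of the same list, was lower in Dox- (540 against 911). The summed signal of 8 ES markers was 2728 in Dox- and 9985 in Dox+. At D2.5, the other day of that fit, mesoderm and vascular markers summed to 3983 in Dox- against 101 in Dox+. The sums there were 3332 against 1098 for trophoblast, 621 against 124 for extraembryonic endoderm and 8083 against 11259 for ES markers. Single genes weighed on the D2.5 sums. Of the trophoblast list, Eomes read 1808 in Dox- against 42.2, while Krt18 (585 against 762) and Elf5 (1.6 against 1.9) were lower. Of the ES list, Dppa5a read 837 against 3719, while Nanog (1324 against 826) and Tdgf1 (3773 against 2702) were higher. In no list was a marker at 0 on these arrays, and Elf5, a trophoblast marker, read 3.2 (Dox-) and 3.3 (Dox+) on D3.5. For RNA quality, the 3' over 5' ratio of the Actb probe sets on D3.5 was 1.63 in Dox- and 1.94 in Dox+. Their part in the D2.5 and D3.5 values of Lifr, Pim2 and the others was not tested.

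Other reported LIF or STAT3 targets in ES cells mostly read lower at the first step. This list of 24 genes, all with a probe set and 19 tested, was chosen with earlier results of these data known and also holds general naive pluripotency genes. On D0.5, 7 of the 19 were at least 2-fold below undifferentiated cells on both arrays (0.918% of all tested genes) and 0 at least 2-fold above. The median difference was -0.75, against 0.02 over all tested genes. Among the 7, chosen here after their values were seen, Klf4, a reprogramming factor gene, read 2989 with LIF and 723 and 783 on D0.5. Tfcp2l1, a naive pluripotency factor gene, read 417, then 94.3 and 80.7. Fos, an immediate early gene, read 239, then 24.7 and 34.7. Pim3, the remaining Pim kinase gene, read 2042, then 931 and 788, so that the 3 Pim genes differed in this step.

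From D0.5 to D3.5, 8 of the 19 were called lower and 0 called higher, against 10.2% and 11.8% of all tested genes. By sign alone, 13 of the 19 were lower and 6 higher. The furthest were Zfp42, a marker of naive cells (-4.35 ± 0.30, SE, 2 media; limma adjusted p = 0.00292), Esrrb (-3.40 ± 0.42, 0.00625), an orphan receptor gene of the naive network, and Klf4 (-3.12 ± 0.54, 0.0136). In the fit of D2.5 with D3.5, 4 were called higher in Dox- (2.83% of all tested genes) and 1 called lower (4.35%). By sign alone, 10 of the 19 were higher and 9 lower. The T-box gene Tbx3 gave 3.48 ± 0.51 (SE, 2 days; limma adjusted p = 0.0118), Fos 2.08 ± 0.24 (0.00641), Myc, a growth regulator gene and target of several pathways, 1.46 ± 0.16 (0.00541), and Klf4 1.28 ± 0.29 (0.0459). Mcl1, a survival gene of the Bcl2 family, was called lower, at -0.69 ± 0.15 (0.0397). By single days, 4 of the 19 were at least 2-fold lower in Dox- and 0 higher on D1.5 (1.42% and 1.33% of all tested genes). On D2.5, 4 were higher and 2 lower (3.41% and 4.45%), and on D3.5, 5 were higher and 1 lower (4.13% and 4.8%). Klf4 and Mcl1 lay outside the rule for named genes.

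The rest of the pathway differed less than the target list at the first step. Of 40 listed ligands, receptors, kinases, other STATs, phosphatases and inhibitors, 35 had a probe set and 20 were tested. The median difference from undifferentiated cells to D0.5 was 0.04, against 0.02 over all tested genes. The Src-family kinase gene Yes1 was the 1 gene at least 2-fold lower on both arrays (400 with LIF, 142 and 125 on D0.5), against 0.918% of all tested genes. All listed ligands with a probe set, Lif among them, stayed under 50 on every array. From D0.5 to D3.5, 2 of the 20 were called higher and 2 called lower. These shares are close to the 11.8% and 10.2% of all tested genes, so these calls do not set the pathway apart. By sign alone, 11 of the 20 were higher and 9 lower. The kinase gene Jak2 (1.17 ± 0.31, SE, 2 media; limma adjusted p = 0.0441) and Ptpn11 (0.99 ± 0.16, 0.0112), which encodes the phosphatase SHP2 that binds gp130, rose. The adaptor gene Gab1 (-1.74 ± 0.31, 0.0147) and Pias2 (-0.97 ± 0.21, 0.0256), of the PIAS inhibitor family and named outside the rule, fell. None of the 20 was called between the media over 4 days or in the change with day, where 0 of 8716 genes were called (0%). None was called on D2.5 and D3.5 either, against 7.18% of all tested genes, so these counts do not set the pathway apart. Socs2, another SOCS inhibitor gene, had signals of 1257 (Dox+) and 1240.1 (Dox-) on D2.5 but 1391 and 318 on D3.5, and was named after its values were seen.

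The genes most like the 4 tested members of widest range were found by Pearson's r of log2 values over the 9 arrays, which share stages and media, so r is a description. Socs3 was most like Ppp2r5a (r = 0.970), Tmem64 (0.966) and Hmces (0.962), and Pim2 most like Ptger4 (0.982), Kcnj3 (0.978) and Hdgfl3 (0.973). Gbx2 was most like Esrrb (0.994), Phf11d (0.992) and Triml1 (0.989), and Lifr most like Gfod1 (0.991), Ngly1 (0.962) and Mbd2 (0.960). The genes nearest to Socs3 share its single high array rather than its size: Tmem64 read 912 with LIF and between 245 and 370 on the other arrays. Esrrb followed Gbx2 from 462 with LIF to 238 and 230 on D0.5 and at most 11.1 on D3.5. Ptger4, which encodes a prostaglandin E receptor, read 17.2 with LIF, 80.7 and 96.4 on D1.5, and later 72.8 (Dox+) and 10.9 (Dox-) on the last day.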

How the data were processed

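Total RNA of 9 cultures was measured on 1 array each. The authors deposited 1 intensity per probe set and array, made with GCOS per the submitters' processing notes, with no version or background correction stated in the sources used here. The deposited intensity values are linear, and their trimmed mean, leaving out 2% at each end, was 100 on all arrays, so no further normalization was applied.

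Of 45101 probe sets, 34945 had 1 gene symbol, 34741 of them matched by gene ID to the RefSeq gene table of GRCm38.p6, giving 18193 genes, each read from its brightest probe set. Log2(signal + 16) values were fitted with limma 3.58.1 in R 4.3.3 (lmFit, eBayes with trend), over 8716 genes that reached a signal of 50 on 2 or more arrays; calls needed a Benjamini-Hochberg adjusted p under 0.05. Fits used the day as a block for the media, the medium as a covariate for the days, and the product of medium and day. Another took 1 difference of the media on D2.5 and D3.5 and none on D0.5 and D1.5, with the day as a block. For D0.5 against undifferentiated cells, coded as Dox+, stage and medium were used. The main form of each fit was tested on simulated data, and the alternative fits were not. The number of arrays limits the precision.

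Groups came from the labels. The members and lists were chosen with earlier results of these data known. Named genes are the 8 members, up to 3 called genes per list and comparison by size, and the 3 genes most like each of 4 members; others are marked in the text. Some genes of the pathway list were not analysed here. Alternatives were 2 other pseudocounts, no filter, quantile normalization, the mean of all probe sets, other blocks and arrays left out.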

Additional observations from a re-analysis of the deposited data

Results flagged for a closer look

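Lifr differed in opposite directions in the media between D1.5 and D3.5, by -1.34 on the log2(signal + 16) scale in Dox+ and by 1.98 in Dox-, which is why it is listed. Only 20 of 8716 tested genes (0.229%) were at least 2-fold lower in Dox+ and at least 2-fold higher in Dox- over these days. Both values come from the brightest probe set of Lifr. From D1.5 to D3.5 the second read 4.4 and 6.2 in Dox+, and 1.4 and 20.9 in Dox-. The third read 3.5 and 1.6 in Dox+, and 4.3 and 15.3 in Dox-. These dim signals do not bear out the fall in Dox+. Each value compares single arrays, and this difference was not tested. A linear change of the media's difference over the 4 days was not called for Lifr (0.83 ± 0.56 per day; limma adjusted p = 0.704).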

How the results depend on the processing

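With 1 array per group, only differences that are large against the spread of days or media could be called. For D0.5 against undifferentiated cells, 0 genes were called, 7 at a pseudocount of 64 and 44 with media differing only on D2.5 and D3.5 (chosen after seeing the data), with 1 member, Socs3, in each (-3.31, adjusted p = 0.0368, and -3.44, 0.0198). Leaving out any 1 differentiating array gave 0 genes and 0 members. For D3.5 against D0.5, leaving out 1 array gave 66 to 1559 genes against 1917, and 0 to 3 members against 1; the lowest count came without the D0.5 Dox- array, and 894 and 797 were called without D0.5 Dox+ and D3.5 Dox-. For D2.5 and D3.5 together, the 1 member called (Pim2) became 0 at a pseudocount of 1, without the filter, with quantile normalization and with the mean of all probe sets, and 0 to 2 with a day left out, where 228 to 791 genes were called against 626 (228 without D0.5 and 328 without D3.5). The comparison of media over 4 days and its change with day gave 0 genes and 0 members under all alternatives run, including the fit without the day as a block. On D1.5 and D2.5, 4 and 3 members were at least 2-fold apart at a pseudocount of 1, against 0 and 1. On D3.5 they were 3, 4 at a pseudocount of 1 (with Il6st, 1.02) and 2 at a pseudocount of 64 (without Socs3, 0.72).

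Differences of members that were not called turned sign in a few settings, and their causes were not tested. Over 4 days, Gbx2 was 0.14 at a pseudocount of 1 against -0.00 and from -0.18 to 0.26 with a day left out, Pim1 was -0.03 with the mean of all probe sets and from -0.12 to 0.11 with a day left out, and Il6st from -0.05 to 0.41. The change of Pim1 with day was -0.01 with the mean of all probe sets and from -0.04 to 0.30 with a day left out, and its D2.5 and D3.5 difference from -0.17 to 0.50. With 1 array left out, D3.5 minus D0.5 ranged from -1.90 to 2.31 for Pim2 and from -0.89 to 0.07 for Il6st. For D0.5 minus undifferentiated, Il6st was 0.07 without the medium or with it only on D2.5 and D3.5, and from -0.53 to 0.27 with an array left out. The media were compared within days, and the labels give no other replicate numbers.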
